A study of Mus musculus with 15 samples.

Results

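The 10 genes described here encode transcription factors that direct the lineages of the mammary epithelium: Gata3, Elf5, Foxa1, Trp63, Sox10, Tbx3, Stat5a, Nfib, Cebpb and Bcl11a. They were listed by name, with earlier results of these data known and no measured value in the rule, and all 10 are among the 51826 genes of the deposited tables. RNA was sequenced from 15 libraries of 13 mice. Trim24COE mice carry a transgene for FLAG-tagged mouse Trim24 behind a floxed stop cassette and under a ubiquitin C promoter, and MMTV-Cre, which acts mainly in mammary epithelium, removes the stop. From these mice come 3 tumors labelled carcinosarcoma, called metaplastic carcinosarcomas in the study (numbered 64, 567 and 897), and 3 tumors labelled carcinoma (89, 273_5 and 3956). As controls, 4 whole mammary glands (133, 392, 417_3 and 517_3) came from mice with MMTV-Cre alone. The 3 non-TRIM24 tumors (219, FVB001 and FVB002) are labelled as spontaneous carcinomas of unknown genotype. All 13 mice are labelled strain FVB, whereas the design text names FVB/129 for the controls and a similar background for the tumors. The study's methods describe virgin females of a single transgene insertion, and ages are not in the labels. The study's pathologists differ on tumors 89, 567 and 3956, and its supplement also gives a tumor type called from RNA-seq for every Trim24COE tumor sequenced but 3956. The labelled tumor types may therefore not be independent of these libraries, a limit on each p-value below that splits the Trim24COE tumors by type. Every sample is bulk tissue, so in all that follows fewer cells of a type and less RNA per cell cannot be told apart.

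The mammary epithelium has an inner luminal layer, with hormone-sensing ductal cells and alveolar cells that make milk, and an outer basal layer of contractile myoepithelial cells. Gata3 and Foxa1 are associated with luminal identity, and Foxa1 is a pioneer factor that opens chromatin for the estrogen receptor. Stat5a, activated by JAK2 below the prolactin receptor, and the ETS factor Elf5 drive alveolar differentiation, and Nfib, a nuclear factor I protein, acts with them on milk protein genes. Trp63 encodes p63, a factor of basal cells in many epithelia. Sox10, known from neural crest and Schwann cells, and Bcl11a, a zinc finger repressor, are associated with progenitor-like mammary cells. Tbx3 is a T-box factor needed for mammary bud formation, and Cebpb is a basic leucine zipper factor of ductal and alveolar development that macrophages and adipocytes also use.

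The genes lie on 7 chromosomes (GRCm38, GENCODE M21 annotation), all are annotated as protein coding, and the deposited values cover each whole gene. Gata3 (ENSMUSG00000015619.10) is at chromosome 2 from 9857078 to 9890034, Elf5 at chromosome 2 from 103411688 to 103450989 and Cebpb at chromosome 2 from 167688915 to 167690418. Nfib is at chromosome 4 from 82290173 to 82705750, Tbx3 at chromosome 5 from 119670669 to 119684724, and Foxa1 at chromosome 12 from 57540628 to 57546916. On chromosome 11 are Bcl11a, from 24078056 to 24174123, and Stat5a, from 100859351 to 100885169. Sox10 is at chromosome 15 from 79154908 to 79165240 and Trp63 at chromosome 16 from 25683763 to 25892102.

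Promoters of 6 of the 10 factors were in the RefSeq table used (GRCm38.p6, 8 start sites, 300 bases each). Those of Foxa1 and Elf5 are shown because Foxa1 was below every control gland in all 9 tumors and Elf5 had the largest difference of the 10 in metaplastic carcinosarcomas, and that of Bcl11a because it is the only one of the 8 windows with a STAT motif. Each run covers bases -250 to -51 from the start site, 5′ to 3′ on the gene's strand, and capitals mark the searched motifs, which are TGTTTAC (forkhead), GATAA (GATA), TTCNNNGAA (STAT) and GGAAG (ETS), each on both strands.
Foxa1, chr12:57546162-57546361, minus strand: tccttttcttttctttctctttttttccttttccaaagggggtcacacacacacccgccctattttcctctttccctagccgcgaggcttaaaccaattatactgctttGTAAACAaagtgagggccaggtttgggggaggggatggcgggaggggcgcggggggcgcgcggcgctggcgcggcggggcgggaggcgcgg
Elf5, second start site, chr2:103423818-103424017, plus strand: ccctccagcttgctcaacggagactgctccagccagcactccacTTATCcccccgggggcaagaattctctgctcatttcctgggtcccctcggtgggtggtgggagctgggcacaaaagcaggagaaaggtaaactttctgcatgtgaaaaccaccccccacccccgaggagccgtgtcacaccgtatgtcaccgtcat
Bcl11a, chr11:24080445-24080644, plus strand: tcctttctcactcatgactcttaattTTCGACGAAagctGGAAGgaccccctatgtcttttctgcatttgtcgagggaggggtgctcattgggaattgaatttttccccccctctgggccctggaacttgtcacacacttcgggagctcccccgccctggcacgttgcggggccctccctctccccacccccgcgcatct
The capitals in Foxa1 are 1 forkhead motif read on the opposite strand, beginning at base -141, and 3.65% of all 32851 promoter windows hold this motif. The capitals in Elf5 are 1 GATA motif on the opposite strand at base -206, a motif that 25.4% of windows hold. In Bcl11a the capitals are a STAT motif at base -224, held by 8.3% of windows, and an ETS motif at base -211, held by 71.4%. Among the other windows, GGAAG was found at Cebpb, at both start sites of Stat5a and at the first start site of Elf5, and none of the 4 motifs was found at Gata3. A match is a run of letters and not a measured binding site. Each run shown lies inside the annotated gene span given above, so the RefSeq start sites used differ from the GENCODE gene ends. Trp63, Sox10, Tbx3 and Nfib were not in the table.

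The values are TPM, a relative transcript abundance, and are scaled by transcript length and to the same total in every library. Levels can thus be compared between genes, but the read depth behind them is unknown and counting error has no estimate. Each difference below is one of log2(TPM + 1) tested with limma, a scale that understates the change of low genes, with Benjamini-Hochberg adjustment over all genes tested and a threshold of 0.05. Trim24 itself ranged from 14.5 to 22.4 TPM in control glands and from 10.6 to 24.1 TPM in Trim24COE tumors (log2 difference -0.24, limma adjusted p = 0.557), so its RNA does not check the Trim24COE label. The study instead reports high Trim24 RNA in Trim24COE tumors relative to MMTV-Cre glands by qRT-PCR, as its RNA-seq had predicted. By immunohistochemistry it also reports more FLAG and TRIM24 protein in such tumors. Groups are named by their labels. The control glands fell into 2 pairs, as the 12 adipocyte markers, led by Fabp4 and Adipoq, summed to 22580 and 28904 TPM in glands 133 and 392 and to 2411 and 2476 TPM in glands 417_3 and 517_3. Glands 417_3 and 517_3 had 4.08% of genes more than 2-fold apart (TPM + 1, over genes with at least 1 TPM in either), against 12.3% between the 2 libraries of mouse 133 and 4.83% between those of mouse 3956. They were as alike as repeat libraries of 1 mouse, so the counts against control glands are also given with these glands averaged as 1 sample and without them, both chosen after seeing the data.

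In control glands Cebpb was the most abundant of the 10 factors, with a mean of 322 ± 269 TPM (SD, n = 4), followed by Elf5 with 185 ± 111 TPM, Nfib with 96.3 ± 19.6 TPM, Sox10 with 84.3 ± 54.3 TPM, Gata3 with 73.6 ± 29.1 TPM and Stat5a with 53.6 ± 22.6 TPM. Foxa1 followed with 28.2 ± 14.3 TPM, Tbx3 with 10.3 ± 3.48 TPM, Trp63 with 9.44 ± 3.19 TPM and Bcl11a with 4.43 ± 2.21 TPM. Neighbours in this order differed by less than the larger of their SDs, except for Stat5a and Foxa1, Foxa1 and Tbx3, and Trp63 and Bcl11a.

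In metaplastic carcinosarcomas the order was different, with Cebpb first at 205 TPM and Nfib second at 23.7 TPM, while each of the other 8 factors had a mean below 7 TPM. Among the 10 first libraries of batch 1, the SD of log2(TPM + 1) was largest for Elf5 (2.93) and Sox10 (2.77), followed by Foxa1 (1.98) and Gata3 (1.82), and it was smallest for Cebpb (0.94).

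**Figure D1:**
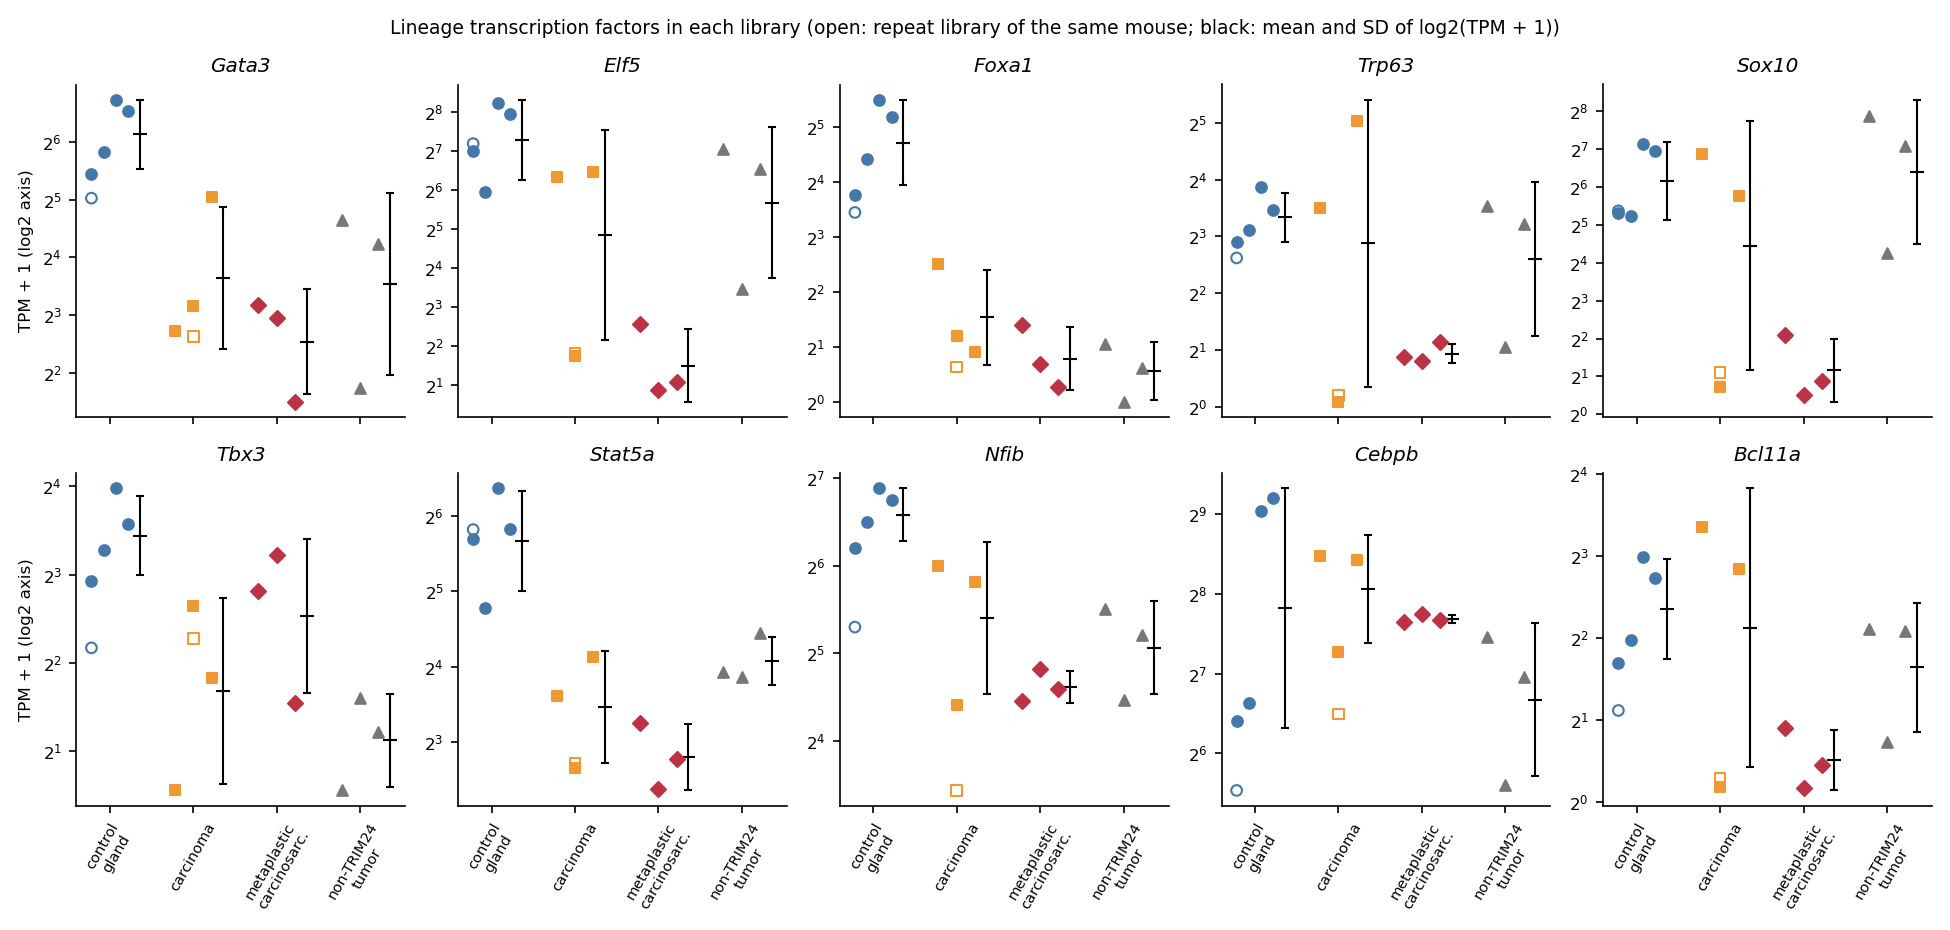
TPM + 1 on a log2 axis for each factor, 1 panel a gene and 1 point a mouse, with open points for the repeat libraries of mice 133 and 3956 and black marks for the mean and SD of log2(TPM + 1) over mice. Foxa1, Gata3, Stat5a and Nfib are lower in all 6 Trim24COE tumors than in all 4 control glands, while Cebpb overlaps and carcinoma 3956 lies with the metaplastic carcinosarcomas for Elf5, Sox10, Trp63 and Bcl11a.

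To see which of these factors differ in tumors of Trim24COE mice as a whole, the 6 tumors were compared with the 4 control glands. Of the 10 factors, 5 were lower in the tumors and 0 higher: Gata3, Foxa1, Stat5a, Elf5 and Nfib. Across all 15196 genes tested, 9.13% were lower at this threshold. The median log2 difference of the 10 factors was -2.05, beside -0.04 over all genes. For Gata3, Foxa1, Stat5a and Nfib, 4 factors, the highest tumor lay under the lowest control gland, a pattern shown by 7.2% of all genes tested.

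Foxa1 had 12.7, 20.5, 44.3 and 35.2 TPM in glands 133, 392, 417_3 and 517_3. It had 0.87, 4.71 and 1.28 TPM in carcinomas 89, 273_5 and 3956, and 1.65, 0.61 and 0.20 TPM in metaplastic carcinosarcomas 567, 64 and 897. The highest tumor, 273_5, was thus below the lowest gland. The log2 difference was -3.56 (standard error 0.46, limma adjusted p = 0.000970), and an exact two-sided permutation test gave p = 0.00476, the smallest that 6 against 4 allows.

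Gata3, the other luminal factor of the list, had 42.6, 55.8, 103.9 and 91.9 TPM in the same order of glands. Carcinoma 89 had 31.9 TPM, the other 2 carcinomas 5.59 and 7.98 TPM, and the metaplastic carcinosarcomas 8.06, 6.74 and 1.84 TPM. No tumor reached the lowest gland, and tumor 89 was the nearest. The log2 difference was -3.04 (standard error 0.55, limma adjusted p = 0.00486, exact permutation p = 0.00476).

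Stat5a, the transducer of the prolactin signal, had 50.6, 26.4, 81.5 and 55.9 TPM in the glands. Carcinomas 89, 273_5 and 3956 had 16.5, 11.2 and 5.29 TPM, and metaplastic carcinosarcomas 567, 64 and 897 had 8.54, 4.18 and 5.81 TPM. All 6 tumors were below gland 392, the lowest gland. Its log2 difference was -2.54 (standard error 0.40, limma adjusted p = 0.00227).

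Nfib, which acts with Stat5a on milk protein genes, had the smallest difference of the 5. The glands had 72.4, 89.2, 116.9 and 106.7 TPM, the carcinomas 55.4, 62.7 and 20.3 TPM, and the metaplastic carcinosarcomas 20.9, 27.2 and 23.1 TPM. Its log2 difference was -1.57 (standard error 0.35, limma adjusted p = 0.0131, exact permutation p = 0.00952).

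Elf5 had the largest difference of the 5 and the least stable call. The glands had 127, 61.3, 304 and 248 TPM. Carcinomas 89 and 273_5, at 88.1 and 79.3 TPM, were above gland 392, whereas carcinoma 3956 had 2.34 TPM and the metaplastic carcinosarcomas 4.89, 0.80 and 1.09 TPM. The log2 difference was -4.12 (standard error 1.17, limma adjusted p = 0.0336). This call was lost with mouse 64, 567, 897, 3956, 133, 417_3 or 517_3 left out, and also with glands 417_3 and 517_3 averaged.

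The other 5 factors did not pass the threshold in this comparison. Sox10 had a log2 difference of -3.35 (limma adjusted p = 0.0890), Tbx3 of -1.34 (0.0809), Trp63 of -1.43 (0.275), Bcl11a of -1.03 (0.309) and Cebpb of 0.06 (0.959). Without carcinoma 89, in which Trp63 was at its highest, 7 factors were lower, Sox10 and Trp63 being added. With glands 417_3 and 517_3 averaged, 4 factors were lower (Gata3, Foxa1, Stat5a and Nfib). Without both, 3 were lower (Gata3, Foxa1 and Stat5a). Elf5 (-3.31, adjusted p = 0.178) and Nfib (-1.33, 0.0788) were then lost, and Cebpb was higher in the tumors (1.35, 0.0246). Over all genes, 1387 were lower in the main fit and 1688 without carcinoma 89. With the glands averaged 989 genes were lower, and without both 1664 were.

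The adipocyte markers moved with this comparison, 6 of 12 being lower in the tumors and 0 higher. Their summed level was 157 to 1424 TPM in the 6 tumors and 2411 to 28904 TPM in the 4 glands. With the mean of these markers as a covariate, 2 factors were lower, Foxa1 (log2 difference -3.99, limma adjusted p = 0.0115) and Stat5a (-2.50, 0.0374). The 3 calls lost were Gata3 (-2.88, adjusted p = 0.0710), Nfib (-1.37, 0.146) and Elf5 (-3.08, 0.301), whose log2 differences without the covariate were -3.04, -1.57 and -4.12. Over all 15196 genes tested, 490 were lower with this covariate and 1387 without it. In glands 417_3 and 517_3, where adipocyte markers were lowest, all 4 of Foxa1, Gata3, Stat5a and Nfib were higher than in glands 133 and 392. Epithelial markers differed between these pairs as well, summing to 6188 and 6553 TPM in glands 417_3 and 517_3. Glands 133 and 392 had 993 and 1684 TPM of them. The part of either marker list in the level of the factors was not tested.

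The 3 metaplastic carcinosarcomas differed from the control glands more broadly. Lower levels were found for 8 of the 10 factors, all but Tbx3 and Cebpb, and 0 were higher, while 13.1% of the 15287 genes tested were lower. For the same 8 the highest tumor lay under the lowest gland, as for 21.6% of all genes tested. The median log2 difference was -2.63 for the 10 factors and -0.12 for all genes. With glands 417_3 and 517_3 averaged 8 factors were lower, and without both 8 were lower and 1, Cebpb, higher. Over all genes 1486 and 2770 were lower in these fits, and 2008 in the main fit.

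Among the alveolar factors, Elf5 had 2.26 ± 2.28 TPM (SD, n = 3) in these tumors and 185 ± 111 TPM (SD, n = 4) in the glands, a log2 difference of -5.80 (standard error 0.63, limma adjusted p = 0.00143), the largest of the 10. Stat5a had 6.18 ± 2.20 TPM in the tumors (-2.87, adjusted p = 0.00323) and Nfib 23.7 ± 3.19 TPM (-1.96, adjusted p = 0.00218). For these 3 factors all 3 tumors lay below the lowest gland.

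Among the factors of basal and progenitor-like cells, Sox10 had 3.30, 0.43 and 0.83 TPM in tumors 567, 64 and 897 and 38.5, 36.7, 138.6 and 123.5 TPM in glands 133, 392, 417_3 and 517_3. Its log2 difference was -4.99 (standard error 0.61, limma adjusted p = 0.00206). Trp63 had 0.83, 0.74 and 1.19 TPM in the tumors and 6.49, 7.60, 13.7 and 9.99 TPM in the glands, a log2 difference of -2.40 (standard error 0.31, limma adjusted p = 0.00240). Bcl11a was below 1 TPM in all 3 tumors and at 2.25 to 6.91 TPM in the glands (-1.84, adjusted p = 0.0135). Bcl11a was not past the threshold with mouse 64 or 897 left out or without the filter on low values. In a fit of all 3 groups of batch 1, which share 1 estimate of the spread, neither Trp63 (adjusted p = 0.0801) nor Bcl11a (0.0733) passed.

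The luminal factors had log2 differences of -3.93 for Foxa1 (limma adjusted p = 0.00206) and -3.59 for Gata3 (adjusted p = 0.00272). For each of the 8 factors the exact permutation test gave p = 0.0286, the smallest that 3 against 4 allows. Tbx3 had 6.05, 8.30 and 1.93 TPM in tumors 567, 64 and 897, and tumor 64 lay within the range of the glands, 6.6 to 14.7 TPM (log2 difference -0.91, adjusted p = 0.182).

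Cebpb had 199, 213 and 203 TPM in the 3 metaplastic carcinosarcomas, a narrower range than in any other group. The glands had 84.0 and 97.8 TPM in mice 133 and 392 and 521 and 586 TPM in mice 417_3 and 517_3, so the tumors lay between the pairs and the log2 difference was -0.13 (standard error 0.72, limma adjusted p = 0.916). Its direction rests on which glands are used. Without glands 417_3 and 517_3 Cebpb was higher in the tumors (1.17, adjusted p = 0.0112), and with the adipocyte covariate, which moved the median of all genes from -0.12 to -0.35, it was lower (-2.57, adjusted p = 0.00140). Macrophage markers, led by Lyz2 and Cd14, summed to 2412 to 5335 TPM in these tumors and to 624 to 934 TPM in the glands, and their part in the Cebpb level was not tested.

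Epithelial markers also moved with this comparison, with 8 of 11 lower and 0 higher. Led by Krt8 and Krt18, they summed to 393 to 1426 TPM in the metaplastic carcinosarcomas and to 993 to 6553 TPM in the glands. With the mean of these markers as a covariate, Elf5 (log2 difference -3.30, limma adjusted p = 0.0442) and Foxa1 (-1.74, 0.0471) were lower and Cebpb was higher (3.29, 0.0253), and the other 7 factors did not pass the threshold. The mean log2(TPM + 1) of the markers was 3.15 to 4.56 in these tumors and 6.07 to 8.71 in the glands, so marker level and group cannot be told apart here. The covariate moved the median log2 difference of all genes from -0.12 to 0.43. Over all 15287 genes tested, 931 were lower with this covariate and 2008 without it, while 2135 and 1503 were higher. Fibroblast markers, led by Col1a2 and Col3a1, rose for 4 of 8 and summed to 2105 to 8371 TPM in the tumors against 633 to 1586 TPM in the glands.

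**Figure D2:**
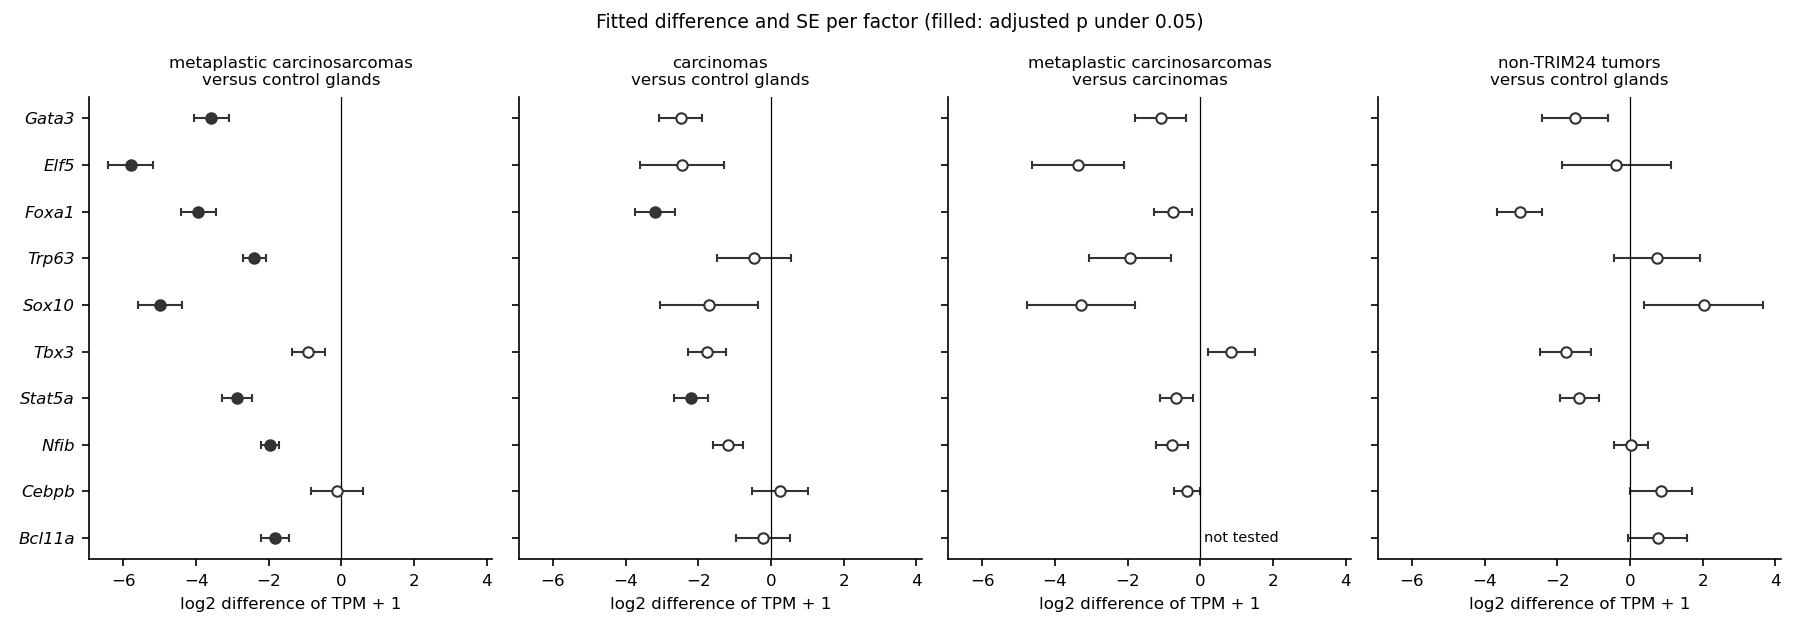
Fitted log2 difference of TPM + 1 (x axis) for each factor, with its standard error as the bar and filled points for a limma adjusted p under 0.05, in 4 comparisons that partly share samples. The difference of Foxa1 from the control glands lies between -3.93 and -3.04 in all 3 tumor groups, whereas Elf5 lies at -5.80 in metaplastic carcinosarcomas and -0.37 in non-TRIM24 tumors.

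The 3 carcinomas had 2 of the 10 factors lower than in control glands, Foxa1 (log2 difference -3.19, standard error 0.55, limma adjusted p = 0.0254) and Stat5a (-2.20, standard error 0.47, adjusted p = 0.0470), and 0 higher. Of the 15479 genes tested, 1.92% were lower. Every carcinoma was below every gland for 5 factors, namely Foxa1, Stat5a, Gata3, Tbx3 and Nfib, as for 10.7% of all genes. Gata3 did not pass the threshold (-2.49, adjusted p = 0.0597), and Tbx3 (-1.76, 0.104) and Nfib (-1.17, 0.151) were further from it.

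These calls were not stable. None of the 10 factors passed with mouse 3956, 417_3 or 517_3 left out. None passed with both glands averaged or left out either, when the adjusted p of Foxa1 was 0.0677 and 0.0541. Calls over all genes fell too, from 297 lower to 30, 44 and 36 with mouse 3956, 417_3 or 517_3 left out. With both glands averaged 41 genes were lower, whereas without both 644 were. Without mouse 89 the 1 factor called was Gata3 (-3.19, adjusted p = 0.0284), and 171 of all genes were lower. The epithelial markers had 1 of 11 higher and 0 lower in the carcinomas than in the glands. With their mean as a covariate Gata3 (-2.57, adjusted p = 0.0147), Foxa1 (-3.23, 0.0150) and Stat5a (-2.25, 0.0226) were lower. Calls over all genes rose too with this covariate, to 811 lower and 565 higher from 297 and 245 in the main fit.

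The carcinomas did not move together in the other factors. Sox10 had 53.3 and 115.6 TPM in carcinomas 89 and 273_5 and 0.64 TPM in carcinoma 3956. Trp63 had 31.9 and 10.4 TPM in the first pair and 0.06 TPM in carcinoma 3956, and Bcl11a had 6.17 and 9.17 TPM against 0.14 TPM. Carcinomas 89 and 273_5 were therefore within or above the range of the glands for Sox10 and Bcl11a, and for Trp63 carcinoma 89 was above all 4 glands. Leaving out mouse 3956 turned the log2 difference from the glands from -0.46 to 0.94 for Trp63, from -1.71 to 0.16 for Sox10 and from -0.22 to 0.75 for Bcl11a, none of them past the threshold.

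Carcinoma 3956 had these low values in both of its libraries. Elf5 was at 2.34 and 2.50 TPM, Sox10 at 0.64 and 1.14 TPM, Trp63 at 0.06 and 0.14 TPM and Bcl11a at 0.14 and 0.22 TPM. Its epithelial markers were the highest of the 13 mice in summed level, 7489 TPM, with 2469 TPM of Krt8 and 401 TPM of Epcam, an epithelial adhesion molecule. In mean log2(TPM + 1) they were not the highest. That mean was 7.51 in tumor 3956, below glands 417_3 and 517_3 (8.67 and 8.71), carcinoma 89 (8.42) and tumors 219 and FVB002 (8.52 and 7.71). Relative to the mean of the 11 epithelial markers in the same library, log2(TPM + 1) of Elf5 differed by -5.77 in tumor 3956 and by -3.07 in tumor 64, the next lowest mouse.

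Krt5, a keratin of basal cells and a p63 target, did not follow Trp63 in carcinoma 273_5. Trp63 had 10.4 TPM there, within the range of the glands, while Krt5 had 0.70 TPM against 40.8 to 409 TPM in the glands. Krt14, its partner keratin, was within the gland range in the same tumor at 58.8 TPM. Krt5 was at 961 TPM in carcinoma 89, in which Trp63 was also highest. Among the tumors Sox10 was highest in 219, FVB002 and 273_5. S100b, which Schwann cells share with other cells, was at 17.7, 17.7 and 21.9 TPM in these tumors. It was picked from 8 Schwann cell markers after its values were seen. In sum these markers had 41.0, 40.5 and 45.8 TPM in the same tumors. The other tumors had 6.45 to 30.2 TPM and the glands 41.7 to 116.5 TPM.

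Schwann cell markers as a list were lower for 5 of the 7 tested in the metaplastic carcinosarcomas than in the control glands, with a summed level of 6.45 to 10.7 TPM against 41.7 to 116.5 TPM, and 17.2 to 45.8 TPM in the carcinomas. Of all genes tested, 13.1% were lower in the metaplastic carcinosarcomas than in the glands. The part of Schwann cells in the Sox10 level was not tested.

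The direct comparison of metaplastic carcinosarcomas with carcinomas found 0 of the 9 factors tested past the threshold in limma, and 0.698% of 14193 genes were past it in either direction. At an unadjusted p under 0.05 were 1 of the 9 (Elf5) and 2126 of the 14193 genes (15%). None of the 9 factors was lower in all 3 metaplastic carcinosarcomas than in all 3 carcinomas, a pattern shown by 14.4% of genes. The largest log2 differences were those of Elf5 (-3.36, standard error 1.26, adjusted p = 0.292) and Sox10 (-3.28, standard error 1.495, adjusted p = 0.360). Tbx3 was the 1 factor with a higher fitted level in metaplastic carcinosarcomas (0.85, adjusted p = 0.565). With 3 against 3 the smallest p an exact permutation test allows is 0.1. With single mice left out, the count rose above 0 only without mouse 3956. That carcinoma had already been seen to be low for the factors then called. Without it, Elf5 (-4.91, adjusted p = 0.0189), Sox10 (-5.15, 0.0189), Trp63 (-3.34, 0.0346) and Bcl11a (-2.58, 0.0327) were lower in the metaplastic carcinosarcomas. Calls over all genes rose as well, with 255 of 14941 genes lower and 38 higher, after 83 and 16 in the main fit. The epithelial markers differed too, 3 of the 10 tested being lower in the metaplastic carcinosarcomas.

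**Figure D3:**
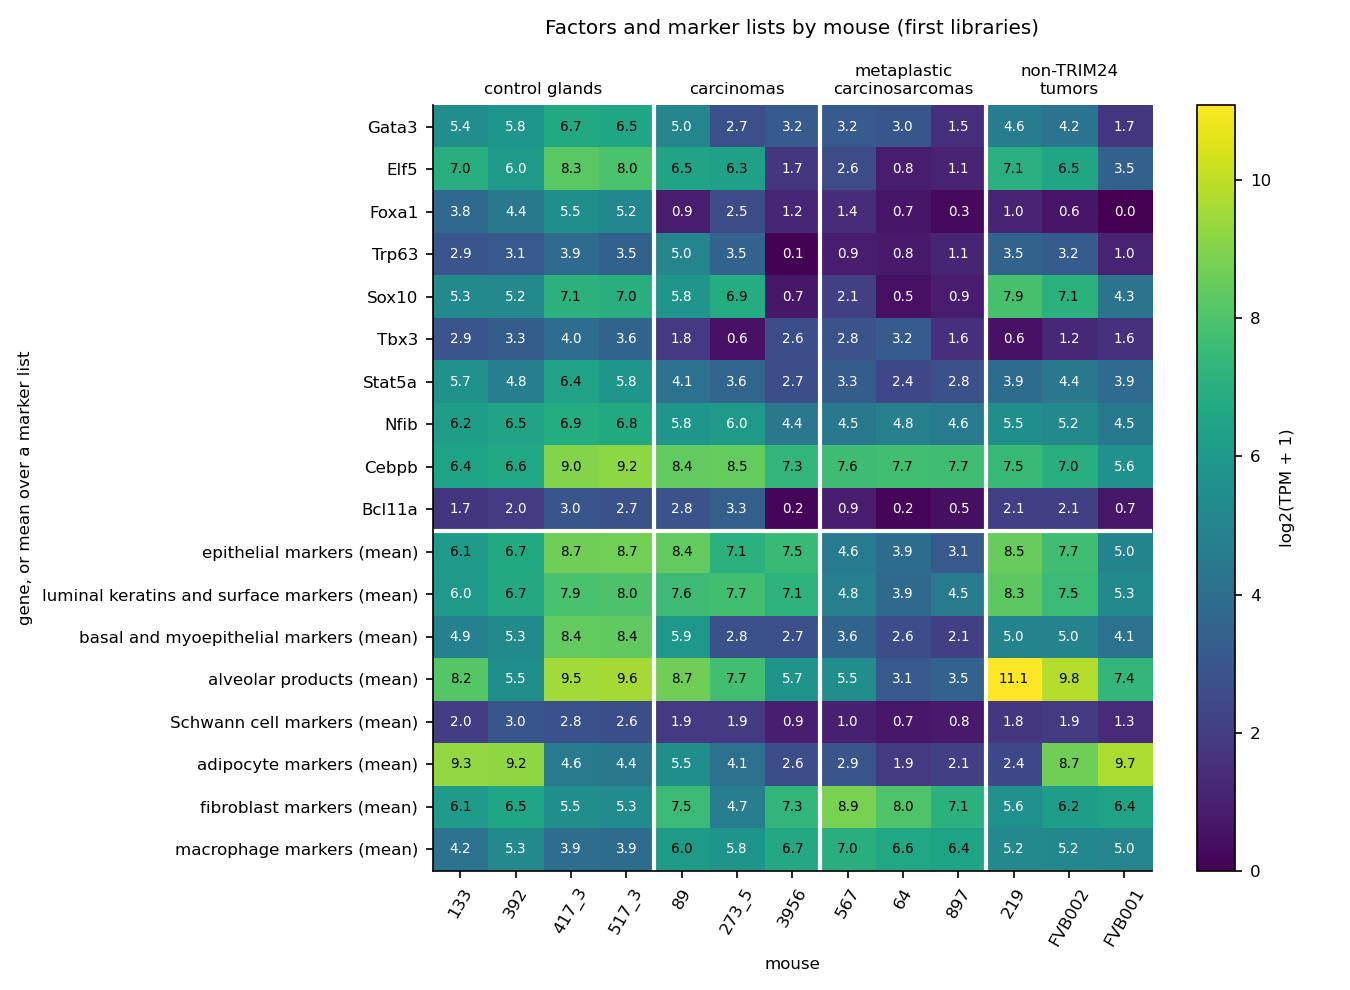
log2(TPM + 1) of the 10 factors (upper rows) and the mean log2(TPM + 1) of 8 marker lists (lower rows) in the first library of each mouse, in columns grouped by label. Carcinoma 3956 has 7.51 for the epithelial mean and 1.74 for Elf5, and control glands 133 and 392 have 9.27 and 9.23 for the adipocyte mean against 4.55 and 4.42 in glands 417_3 and 517_3.

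The non-TRIM24 tumors were all sequenced in batch 2, so they were compared in a fit of all 15 libraries with a batch term, which rests on the repeat libraries of mice 133 and 3956. In that fit 0 of the 10 factors passed the threshold in limma against control glands, while 0.107% of 16775 genes passed in either direction. At an unadjusted p under 0.05 were 3 of the 10 (Foxa1, Stat5a and Tbx3) and 10.7% of all genes. Foxa1 was listed at 1.07, 0.00 and 0.53 TPM in tumors 219, FVB001 and FVB002, below every control gland (log2 difference -3.04, standard error 0.62, adjusted p = 0.124). Foxa1 passed with the adipocyte covariate (-3.18, adjusted p = 0.0429), with the epithelial covariate (-3.15, 0.0321) and when libraries of a mouse were treated as correlated (-3.71, 0.00956). Over all genes 10 were lower in the main fit, 13 and 33 with these covariates and 85 with correlated libraries. The level of Foxa1 was also lower in the repeat of gland 133, at 9.91 TPM against 12.7 TPM in the first library.

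Sox10, Elf5 and Trp63 were within or above the range of the glands in tumors 219 and FVB002. Sox10 had 233 and 135 TPM in tumors 219 and FVB002 and 18.1 TPM in tumor FVB001, and Elf5 had 131.5, 92.5 and 9.93 TPM in the same order. Trp63 had 10.6, 8.31 and 1.07 TPM. Tumor FVB001 was the lowest of the 3 for 9 of the 10 factors, all but Tbx3. That tumor also had the lowest epithelial markers of the group, 621 TPM against 6476 and 3594 TPM, and the highest adipocyte markers, 40866 TPM.

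Between carcinomas and non-TRIM24 tumors 0 of the 10 factors passed in limma, and 0.0179% of 16775 genes passed. At an unadjusted p under 0.05 were 2 of the 10 (Sox10 and Nfib) and 17.7% of all genes. Sox10 had a log2 difference of -4.31 (standard error 1.62, adjusted p = 0.216) and Nfib of -1.36 (standard error 0.47, adjusted p = 0.196). Without mouse 3956 these were -0.88 and -0.44, and without the batch term -2.79 and -0.15. The mean TPM of Nfib ran the other way, 46.1 in carcinomas and 33.9 in non-TRIM24 tumors. The batch touches these values. Nfib went from 72.4 to 38.4 TPM between the first and repeat libraries of gland 133 and from 20.3 to 9.83 TPM between those of tumor 3956, and Cebpb from 84.0 to 45.4 TPM and from 153.8 to 89.1 TPM. Over all genes the median log2 difference of the repeat library was -0.00 for gland 133 and -0.07 for tumor 3956.

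**Figure D4:**
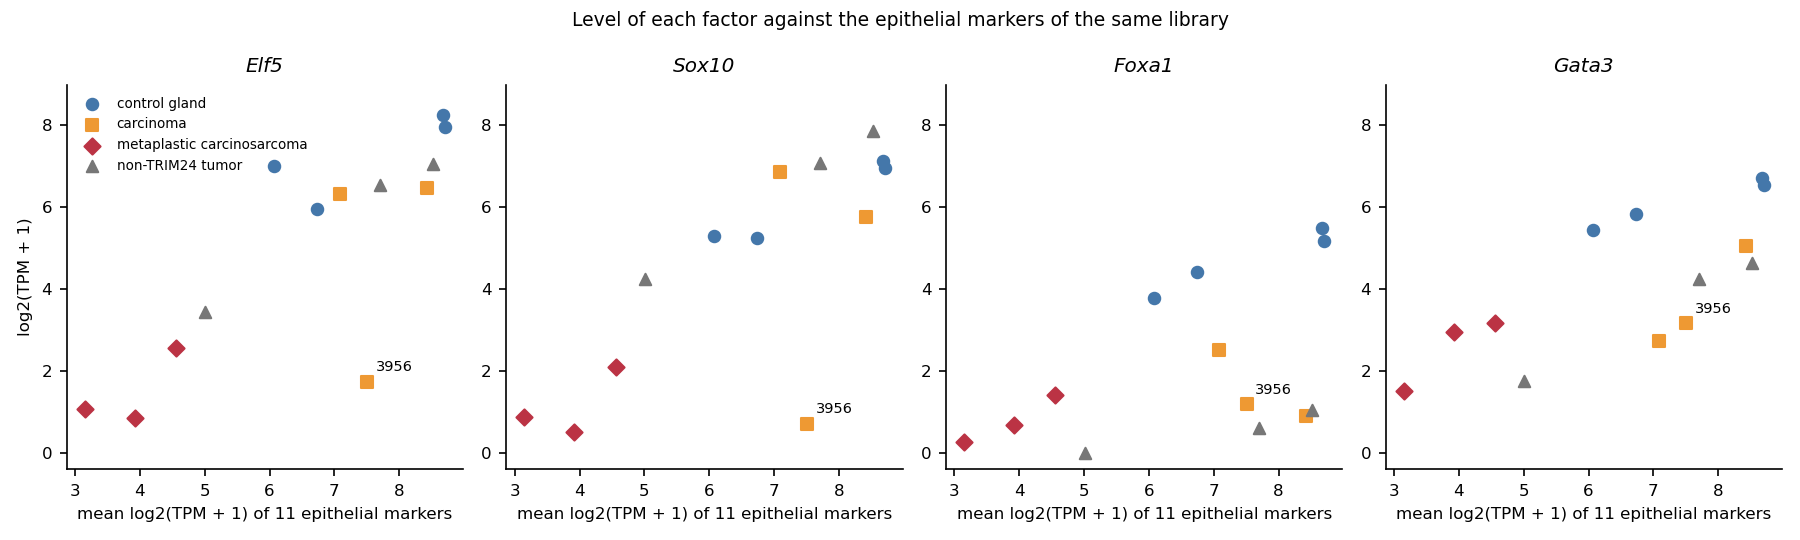
log2(TPM + 1) of Elf5, Sox10, Foxa1 and Gata3 (y axis) against the mean log2(TPM + 1) of 11 epithelial markers in the same library (x axis), 1 point a mouse and first libraries only. For Elf5 and Sox10 carcinoma 3956 lies far below other samples of like epithelial level. For Foxa1 all 6 Trim24COE tumors and all 3 non-TRIM24 tumors lie below the 4 control glands in height. Minus the epithelial mean of the same library, Foxa1 is -3.23 to -2.88 in metaplastic carcinosarcomas, within the gland range of -3.53 to -2.30. On that measure the carcinomas (-7.52 to -4.57) and non-TRIM24 tumors (-7.47 to -5.01) are below the glands. Gata3 in metaplastic carcinosarcomas (-1.64 to -0.97) is also within the gland range (-2.17 to -0.63).

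Other transcription factors of the mammary gland were followed in a list of 36 genes. Against control glands 13 of them were lower and 0 higher in the 6 Trim24COE tumors, 17 lower and 0 higher in the metaplastic carcinosarcomas and 7 lower and 0 higher in the carcinomas, with 0 past the threshold in non-TRIM24 tumors. Of all genes tested, 9.13%, 13.1% and 1.92% were lower in the Trim24COE tumors, the metaplastic carcinosarcomas and the carcinomas. The medians of the list were -1.31, -1.51, -0.9996 and -0.63, beside -0.04, -0.12, 0.02 and -0.21 for all genes. Esr1, the estrogen receptor gene with which Foxa1 acts, had 1.20 ± 0.43 TPM in the 6 tumors and 9.74 ± 1.48 TPM in the glands (log2 difference -2.30, limma adjusted p = 0.000298). Cited1, a cofactor of the estrogen receptor, had 4.68 ± 3.13 TPM against 157.7 ± 80.0 TPM (-4.80, adjusted p = 0.000448). Tfap2b had a log2 difference of -3.30 (adjusted p = 0.000387) and Nfia, a relative of Nfib, of -2.80 (adjusted p = 0.000676). Esr1, Cited1, Tfap2b and Nfia were also lower in the carcinomas alone. In the metaplastic carcinosarcomas the ETS factor Ehf (-5.31, adjusted p = 0.00232) and Tfap2c (-4.92, adjusted p = 0.00233) were lower.

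Grhl2, a grainyhead factor of epithelial junctions, was the 1 gene of this list that separated the tumor types. It had 0.85, 0.87 and 1.34 TPM in metaplastic carcinosarcomas 567, 64 and 897 and 21.0, 21.7 and 14.6 TPM in carcinomas 89, 273_5 and 3956 (log2 difference -3.30, standard error 0.29, limma adjusted p = 0.0123). Grhl2 was named because it differed between the tumor types, so the place of carcinoma 3956 with the other carcinomas follows from this choice. For Elf5, Sox10, Trp63 and Bcl11a carcinoma 3956 was with the metaplastic carcinosarcomas.

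Of 14 receptors and known targets of these factors, 13 were tested against the control glands. In the 6 Trim24COE tumors 3 were lower and 1 higher, beside 1387 lower and 1210 higher of all 15196 genes tested. Prlr, the prolactin receptor above Stat5a, had 3.18 ± 3.95 TPM in the tumors and 49.9 ± 26.7 TPM in the glands (log2 difference -3.94, limma adjusted p = 0.00304). Cish, a target of STAT5, was lower (-1.69, adjusted p = 0.0361), as was Wnt4, a paracrine signal of hormone-sensing cells (-2.18, 0.0398). Areg, which encodes the ligand amphiregulin, was higher (1.46, adjusted p = 0.0428). In the metaplastic carcinosarcomas Prlr (-4.52, adjusted p = 0.00153), Krt5 (-6.20, 0.00359), Wnt4 (-2.64, 0.0145) and Cish (-2.10, 0.0411) were lower and 0 were higher. Of all genes tested, 13.1% were lower in the metaplastic carcinosarcomas. In the carcinomas and the non-TRIM24 tumors 0 of the receptors and targets passed.

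The alveolar products, milk proteins and secreted factors of alveolar cells led by Lcn2 and Csn3, had 1 of 8 lower in the 6 tumors, 5 of 8 in the metaplastic carcinosarcomas and 0 of 8 in the carcinomas. Over all genes tested the shares lower were 9.13%, 13.1% and 1.92% in the same order. Control glands held 1833 to 11307 TPM of these products in sum, metaplastic carcinosarcomas 212 to 882 TPM, carcinomas 700 to 16835 TPM and non-TRIM24 tumors 4123 to 56617 TPM. Basal and myoepithelial markers, led by Acta2 and Krt14, had 4 of 8 lower in the metaplastic carcinosarcomas and 3 of 8 in the carcinomas. Luminal keratins and surface markers had 5 of 8 lower in the metaplastic carcinosarcomas and 0 lower and 1 higher in the carcinomas. T cell markers (Trac, Cd3g), B cell markers (Cd79a, Cd79b) and skeletal muscle markers (Acta1, Tnnt3) had 1, 0 and 0 of those tested lower in the metaplastic carcinosarcomas.

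To find genes with a pattern like those of the 4 most variable factors, each gene was centred on its mean log2(TPM + 1) and compared by root mean square difference over the 10 first libraries of batch 1. Nearest to Elf5 were Ehf (0.45), Igfbp5 (0.46) and Tfap2c (0.47). Nearest to Sox10 were Tfap2c (0.26), Igfbp5 (0.49) and Mia (0.53). Cxcl15 (0.37), Id4 (0.51) and Lmod1 (0.54) were nearest to Foxa1, and Adgrg1 (0.44), Cd55 (0.45) and Epas1 (0.49) to Gata3. These values describe the 10 libraries, which share the group structure, and no test was made.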

How the data were processed

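Whole-tissue RNA of 13 mouse mammary tumors and glands was measured in 15 libraries (10 in batch 1, 5 in batch 2). The authors trimmed reads, aligned them with STAR to GRCm38 with a GENCODE transcriptome and estimated TPM per gene with RSEM, and these deposited TPM are the values used. The submitters' processing notes also name TopHat, Cufflinks, DESeq and edgeR. The labels name a stranded total RNA kit and the study's methods another, so the kit is uncertain. TPM carry no depth, and the counts behind the authors' tests were not used here.

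From the TPM, log2(TPM + 1) was fitted with limma 3.58.1 (lmFit, eBayes with trend) in R 4.3.3, over genes with 1 TPM or more in a number of libraries equal to the mice of the smaller group. Comparisons without non-TRIM24 tumors used batch 1 alone, and the others used all 15 libraries with a batch term, so repeats entered as libraries. Exact permutation tests used Python 3.11.15. p-values are two-sided. Those of the permutation tests and of the batch 1 fits measure the spread between mice. In the fits of all 15 libraries they also hold the spread between repeat libraries of a mouse. The fits were tested on simulated data. The 10 factors and all gene lists were chosen with earlier results of these data known. Other genes were named by rule: up to 4 per direction with the smallest adjusted p from the lists of transcription factors and of receptors and targets, the 2 most abundant of each marker list, and the 3 nearest in pattern to each of 4 factors. Epcam and S100b were chosen after their values were seen, and some marker genes are not reported here. Alternatives changed the pseudocount, filter, scaling, covariates, groups in the fit, batch handling and mice, and those on glands 417_3 and 517_3 were chosen after seeing the data.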

Additional observations from a re-analysis of the deposited data

Results flagged for a closer look

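In 3 of 20 sets of values (10 factors, each in the 4 control glands and in the 6 Trim24COE tumors), 1 sample stood apart from the others by Dixon's test at 95%. The test was run on TPM and not on the log2 scale used above. It assumes a normal spread, for which chance flags about 1 in 20 such sets, and this was not checked. The sets share the same mice and the tumor sets join both tumor types, so the count cannot be read as an excess. All 3 were carcinomas. Gata3 was at 31.9 TPM in carcinoma 89, and the next highest of the 6 tumors, metaplastic carcinosarcoma 567, had 8.06 TPM. Trp63 was at 31.9 TPM in the same carcinoma, against 10.4 TPM in carcinoma 273_5. Foxa1 was at 4.71 TPM in carcinoma 273_5, against 1.65 TPM in metaplastic carcinosarcoma 567. No control gland stood apart in any of the 10 factors.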

How the results depend on the processing

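Of the 10 factors, 5 were past the threshold between Trim24COE tumors and control glands, and this count was 2 with the adipocyte covariate and 4 to 7 with single mice left out. Between metaplastic carcinosarcomas and control glands it was 8, then 3 with the epithelial covariate, 6 in a fit of all 3 groups of batch 1 and 7 to 8 with single mice left out. Between carcinomas and control glands it was 2, then 1 with the adipocyte covariate, 0 without the filter, 0 with glands 417_3 and 517_3 averaged or omitted, and 0 to 2 with single mice left out. Between the tumor types it was 0, and 0 to 4 with single mice left out. For non-TRIM24 tumors against control glands the count was 0, then 4 without the batch term, 1 with either covariate and 1 with duplicateCorrelation. It was 0 to 0 with single mice left out, as between carcinomas and non-TRIM24 tumors. Without the batch term 1434 of all 16775 genes were lower and 428 higher, against 10 and 8 in the main fit. That setting does not separate group from batch. Where no value shows the cause of such a change, it was not tested.

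Direction turned for Cebpb between all tumors and glands (-0.18 with quantile normalization, -1.06 with the adipocyte covariate, -0.41 to 0.52 with single mice left out, against 1.35 and adjusted p = 0.0246 without glands 417_3 and 517_3), between metaplastic carcinosarcomas and glands (3.29 with the epithelial covariate, 0.30 and 1.17 with glands 417_3 and 517_3 averaged and omitted, -0.60 to 0.33 with single mice left out) and between carcinomas and glands (-0.87 with the adipocyte covariate, -0.23 to 0.70). Between the tumor types the adipocyte covariate turned Gata3 (0.0900), Trp63 (0.76), Stat5a (0.32) and Cebpb (0.24), and the epithelial covariate turned Gata3 (4.57), Elf5 (0.34), Trp63 (1.05) and Stat5a (1.03), with no factor past the threshold. Tbx3 turned in metaplastic carcinosarcomas against glands with the epithelial covariate (0.56), and Bcl11a in carcinomas against glands without glands 417_3 and 517_3 (0.29). In carcinomas against glands, leaving out single mice gave -1.54 to 0.94 for Trp63, -2.92 to 0.16 for Sox10 and -0.83 to 0.75 for Bcl11a.

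The design is small, 3 or 4 mice a group, the depth is unknown, and the part of tissue makeup cannot be told apart from that of the cells. No paired analysis was possible because the labels give no replicate numbers shared between groups.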
